A study of Citrus sinensis with 30 samples.

Results

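Juice sacs of ‘Tarocco’ blood orange (TBO) were compared with juice sacs of ‘Bingtangcheng’ sweet orange (BTSO) at 60 days after storage (60 DAS), gene by gene. Each variety was represented by 3 RNA-seq libraries at this day, and each library was a biological replicate made from juice sacs pooled over several fruit. These 6 libraries belong to a set of 30, in which both varieties were sampled in triplicate on 5 days, namely 0, 15 and 30 DAS and then 60 and 90 DAS. The fruit of both varieties were mature, bagged singly and kept in cold storage, with no other treatment. Each variety was 1 cultivar, so every difference below is between 2 genotypes as a whole. Of the 24179 genes in the table, 16578 reached an FPKM (fragments scaled to transcript length and to the size of the library) of at least 1 in at least 3 of the 30 libraries, and these were tested.

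Blood orange is known for its red pulp, which is coloured by anthocyanins that build up in the cold. Anthocyanins are made from phenylalanine: phenylalanine ammonia-lyase (PAL) opens the phenylpropanoid pathway, and the flavonoid skeleton is built by chalcone synthase (CHS) and by chalcone isomerase (CHI), then hydroxylated by flavanone hydroxylase (F3H) and by flavonoid 3'-hydroxylase (F3'H). The pigment is then formed by DFR, a reductase of dihydroflavonols, and by anthocyanidin synthase (ANS), sugars are attached, and a glutathione S-transferase (GST) helps carry it to the vacuole. The vacuole of the juice sac cell also stores citrate, the main acid of the fruit, and proton pumps in its membrane keep it acid.

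The 6 libraries separated by variety. Pearson correlations of log2(FPKM + 1) were at least 0.979 among the TBO libraries and at least 0.969 among the BTSO libraries, and lay between 0.864 and 0.920 across varieties. Summed estimated counts were 70699103 to 71585517 in TBO and 64063824 to 65430143 in BTSO, so TBO had the larger totals. FPKM was above 0 for 20541, 20326 and 20498 genes in TBO, against 19876, 19706 and 19850 genes in BTSO. The difference of 644.33 genes had an exact two-sided permutation p of 0.1, the smallest that 3 against 3 libraries can give, and the part of the larger TBO totals in it was not tested. Genes of other tissues that a juice sac sample could hold were also summed. Photosystem and light-harvesting genes (15 in the list) summed to 86.8 to 111 FPKM in TBO and 60.6 to 69.5 FPKM in BTSO. Seed storage and desiccation genes (13) summed to 392 to 880 FPKM in TBO and 573 to 1170 FPKM in BTSO, and laccases and other vascular genes (14) to 30.0 to 37.8 FPKM in TBO and 41.7 to 77.5 FPKM in BTSO. In the photosystem list 1 member and in the vascular list 1 member were listed at 0 in all 6 libraries, and none of the seed list was. The seed sums overlapped, the green sums were higher in TBO and the vascular sums were lower in TBO, and their part in the results was not tested. In bulk samples, fewer cells of a type and less RNA per cell cannot be told apart.

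With limma on log2(FPKM + 1), 1892 genes (11.4%) were called different between TBO and BTSO at an unadjusted p under 0.05 and a log2 difference over 1. Of these, 1106 genes (6.67%) were higher in TBO and 786 (4.74%) were lower. All but 13 of the calls also had a Benjamini-Hochberg adjusted p under 0.05, and in 1855 of them no TBO library overlapped with any BTSO library, a separation found in 57.6% of all genes tested. The largest differences lay on the TBO side: 35 genes were higher by more than 4 on the log2 scale and 4 were lower by as much. The median over all genes tested was 0.03. All fold values below are differences in log2(FPKM + 1), TBO minus BTSO, with the standard error of the fit, and understate the change of genes near 0.

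**Figure D1:**
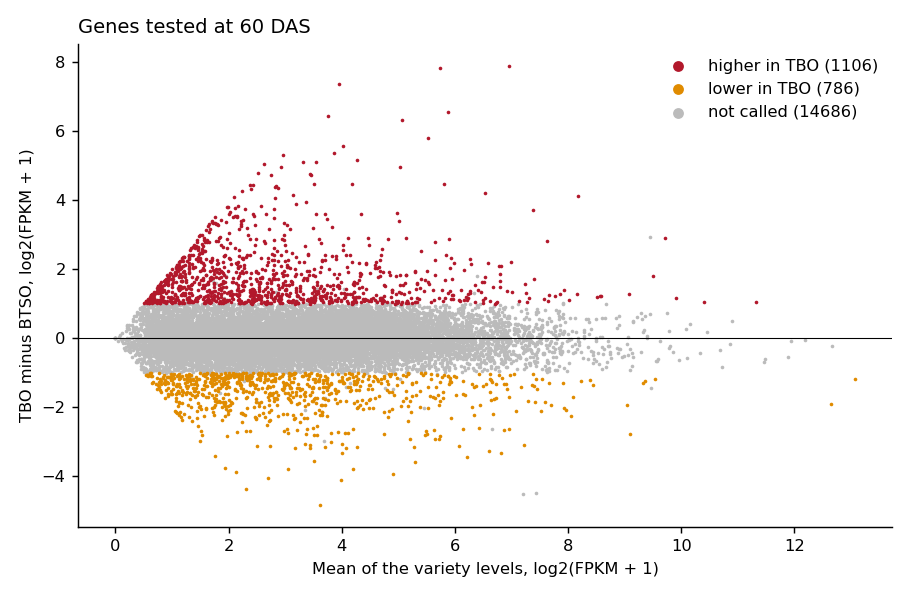
Difference between TBO and BTSO at 60 DAS for each of the 16578 genes tested (y axis, log2(FPKM + 1), TBO minus BTSO) against the mean level of the 2 varieties (x axis, log2(FPKM + 1)). Red points are the 1106 genes called higher in TBO, orange points the 786 called lower and grey points the genes not called; the red points reach 7.88 and the orange points −4.82.

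The anthocyanin pathway held the largest differences of all. The gene called chalcone synthase 1 (Cs9g11190), which makes the first flavonoid, had 1908, 1614 and 1991 FPKM in TBO, against 3.80, 7.22 and 10.9 FPKM in BTSO. It was the gene with the largest difference of the whole comparison, 7.88 ± 0.35 (SE, limma with Benjamini-Hochberg adjusted p = 1.66e-14). The GST gene Cs6g15900, named as such by the study, had 891, 658 and 806 FPKM in TBO, against 1.31, 2.34 and 4.33 FPKM in BTSO, a difference of 7.82 ± 0.32 (adjusted p = 3.36e-15). DFR (Cs3g25090, named by its orthology entry) had 248, 155 and 195 FPKM in TBO, against 0.151, 0.201 and 0.229 FPKM in BTSO, a difference of 7.36 ± 0.26 (adjusted p = 3.34e-16). In these 3 genes no TBO library was below 155 FPKM and no BTSO library above 10.9 FPKM. F3H (Cs1g25280) had 684, 445 and 574 FPKM in TBO, against 4.79, 4.13 and 6.38 FPKM in BTSO (6.54 ± 0.20, adjusted p = 3.41e-17). ANS (Cs5g09970) had 356, 231 and 290 FPKM in TBO, against 1.27, 3.64 and 3.67 FPKM in BTSO (6.30 ± 0.31, adjusted p = 1.22e-13). Among the TBO libraries replicate 2 was the lowest for each of these 5 genes, and no BTSO library came near it.

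The steps before the flavonoids moved the same way. In the list of the phenylpropanoid entry, 5 of 7 genes tested were higher in TBO and none was lower, with a median difference of 1.95. The 5 were the PAL genes, while neither cinnamate 4-hydroxylase gene was called, and Cs1g08620 of that pair had 105, 102 and 110 FPKM in TBO, against 85.3, 113 and 83.5 FPKM in BTSO. PAL Cs8g16290 had 131, 90.3 and 111 FPKM in TBO, against 1.14, 1.86 and 1.05 FPKM in BTSO (5.58 ± 0.33, adjusted p = 3.09e-12). PAL Cs6g11940 was well expressed in both varieties, with 109, 79.8 and 86.6 FPKM in TBO, against 31.1, 69.0 and 24.0 FPKM in BTSO. Its difference was 1.26 ± 0.39, and without BTSO replicate 3 it was 0.96 and no longer called. The differences of the remaining PAL genes were 5.37 ± 0.38 for Cs6g11950, 2.63 ± 0.40 for Cs7g24940 and 1.95 ± 0.23 for Cs7g25030. A DAHP synthase (Cs3g18030), the enzyme that opens the shikimate pathway from which phenylalanine is made, had 288, 212 and 268 FPKM in TBO, against 9.77, 7.54 and 15.9 FPKM in BTSO (4.46 ± 0.25).

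Of the early flavonoid steps, 10 of 23 genes tested were higher in TBO and none was lower, with a median of 0.73. CHS was represented by 7 genes tested, of which 4 were higher, and CHI by 2, both higher. The F3'H group had 9 genes, of which 3 were higher. It also took in genes described as flavonoid 3',5'-hydroxylase, the called gene Cs2g29510 among them. The F3H group had 5 genes, of which Cs1g25280 alone was called. It also took in genes described as flavonol synthase/flavanone 3-hydroxylase and a hyoscyamine 6-dioxygenase-like gene. The study counts another gene as F3H, Cs2g04110, which the table describes as protein SRG1 and which is outside this count. It had 68.2, 58.0 and 81.3 FPKM in TBO, against 13.1, 10.1 and 39.0 FPKM in BTSO (1.92 ± 0.48, limma with Benjamini-Hochberg adjusted p = 0.00202). F3'H Cs5g11730 had 129, 94.5 and 118 FPKM in TBO, against 1.90, 3.14 and 1.61 FPKM in BTSO (5.17 ± 0.20). A CHS copy, Cs2g14720, stood at 37.1, 22.5 and 27.9 FPKM in TBO and under 0.2 FPKM in each BTSO library (4.78 ± 0.31). CHI Cs7g29780 was weaker in both varieties, with a mean of 6.11 ± 0.354 FPKM in TBO and 0.792 ± 0.172 FPKM in BTSO (SD, n = 3 each). The CHI-like gene Cs7g20780 had 4.21 ± 0.605 FPKM in TBO and 0.281 ± 0.0842 FPKM in BTSO. Within a multigene family such as CHS, reads may be split between near-identical copies, so the value of a single copy is uncertain.

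Of the late anthocyanin steps, 4 of 10 genes tested were higher in TBO and 1 was lower, with a median of 1.08. The GST gene Cs6g15900 among the 4 was listed by the study's identifier. The study chose it, like the other pathway genes it names, from genes that differed in these samples. Calls of such genes are no independent evidence of direction. Sugar-adding enzymes were called in both directions: of 6 anthocyanidin glucosyltransferase genes, 1 was higher and 1 was lower. Outside that list, the locus Cs9g18820;Cs9g18830, a merged pair described as anthocyanidin 5,3-O-glucosyltransferase, had 37.8, 37.4 and 43.0 FPKM in TBO, against 0.967, 2.27 and 1.76 FPKM in BTSO (3.95 ± 0.26). The gene described as anthocyanidin 3-O-glucosyltransferase 5 (orange1.1t04895) ran the other way, with 3.64, 2.77 and 2.30 FPKM in TBO, against 15.4, 52.3 and 14.4 FPKM in BTSO (−2.62 ± 0.34). Cs6g11490, the most expressed of these enzymes, did not differ beyond its spread, with 68.5 ± 3.16 FPKM in TBO and 80.3 ± 25.4 FPKM in BTSO (SD). In Cs6g11510 the libraries overlapped, with 15.0 to 18.5 FPKM in TBO and 1.03 to 38.4 FPKM in BTSO. A MATE transporter (DETOXIFICATION 8, Cs6g18200), of a family that moves small molecules into the vacuole or out of the cell, was uneven in TBO, with 4.46, 105 and 114 FPKM, against 0.241, 0.336 and 1.19 FPKM in BTSO. Its difference of 4.72 had a standard error of 1.54, and TBO replicate 1 lay far below the other two.

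**Figure D2:**
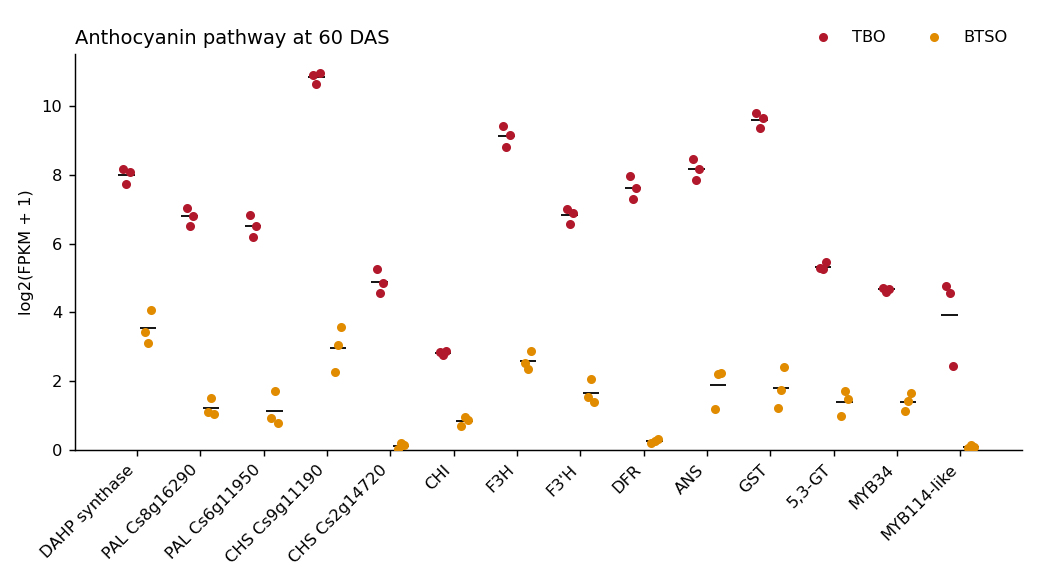
Levels of 14 genes of anthocyanin formation and control at 60 DAS (y axis, log2(FPKM + 1)), with the 3 TBO libraries in red left of the 3 BTSO libraries in orange and a black line at each mean of the plotted values. All TBO points lie above all BTSO points in each of the 14 genes; chalcone synthase 1 reaches 1991 FPKM in TBO and 10.9 FPKM in BTSO, and the MYB114-like gene is uneven in TBO (4.45 to 26.1 FPKM).

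The study designed quantitative PCR primers for several of these genes, and those of 3 flavonoid genes and of the MYB gene described next are shown because they tie each name to a transcript. The sequences are given 5′ to 3′ and have no part in capitals; positions in the genome were not looked up here.
F3H Cs1g25280, first primer: ccgggaaccatcacactctt
F3H Cs1g25280, second primer: ctcccattgctcagataatgacc
F3'H Cs5g11730, first primer: cacgttcgccaggaagagat
F3'H Cs5g11730, second primer: caacgcacaagttcaaccgt
GST Cs6g15900, first primer: cttcttcgacagccgtttgg
GST Cs6g15900, second primer: gtttggcccttggtttgcat
MYB Cs9g03070, first primer: cgagcttctggccaactaca
MYB Cs9g03070, second primer: gagaaggcgatgtaggcgaa

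Regulators of the pathway were followed as well. The MYB gene Cs9g03070, which the table describes as MYB34 and the study calls PH4, had 25.2, 23.3 and 24.6 FPKM in TBO, against 1.20, 1.65 and 2.16 FPKM in BTSO (3.27 ± 0.23, adjusted p = 7.93e-11). A second MYB gene, Cs6g17570, described as MYB114-like, was singled out after its values were seen. It had 26.1, 22.6 and 4.45 FPKM in TBO, against 0.0304, 0.107 and 0.0596 FPKM in BTSO (3.83 ± 0.34, adjusted p = 3.82e-09). Over the whole MYB list, 4 of 36 genes were higher in TBO and 5 were lower, so the family was called in both directions. Of the 5 regulators that the study proposed, 4 passed the limit, but the study chose them on these samples and they are no independent evidence of direction. FAR1 (Cs2g11450), a factor of light signalling in Arabidopsis, had 13.3 ± 0.829 FPKM in TBO and 5.20 ± 0.921 FPKM in BTSO (SD), a difference of 1.21 ± 0.10. The remaining 3 lay at the limit of 1: the zinc finger gene Cs4g14220 at 1.07 ± 0.12, the histone acetyltransferase gene Cs6g19010 at 1.00 ± 0.14 and the chromatin remodelling gene Cs2g11400 at 0.94 ± 0.15, the last not called. Leaving out TBO replicate 2 (1.00) or BTSO replicate 2 (0.97) ended the call of Cs4g14220, and leaving out TBO replicate 3 (1.00) or BTSO replicate 1 (0.94) ended that of Cs6g19010. Upper-quartile scaling ended both calls (1.00 for Cs4g14220 and 0.94 for Cs6g19010), and quantile scaling ended that of Cs6g19010 (0.99).

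Calls among citrate genes fell on P-type proton pumps and on enzymes around citrate, with no call in the list of citrate cycle enzymes. A wider list, of genes with the pathway label citrate cycle, had 57 genes tested. Of these, 3 were higher and 1 was lower (7.02%, against 11.4% of all genes tested), within −2.99 and 2.77 on the log2 scale. Of 5 P-type proton pump genes tested, 2 were higher in TBO and none was lower. ATPase 10 (Cs1g16150), which the study calls PH8, had 50.0, 36.8 and 43.1 FPKM in TBO, against 3.11, 3.41 and 2.58 FPKM in BTSO (3.45 ± 0.25, adjusted p = 1.39e-10). A merged locus of 3 ATPase 4 genes (Cs6g03430;Cs6g03440;Cs6g03445) had 11.3, 15.2 and 16.6 FPKM in TBO, against 2.64, 1.93 and 1.94 FPKM in BTSO (2.27 ± 0.19). The pump gene with the highest level in BTSO, ATPase 11 (Cs5g04360), had 16.5 ± 1.48 FPKM in TBO and 24.3 ± 3.29 FPKM in BTSO and did not pass the limit. The other family of pumps, the vacuolar ATPase subunits and pyrophosphatases, had 20 genes tested and no call with limma, edgeR or DESeq2. At an unadjusted p under 0.05 alone, 2 of them were higher and 7 lower, within −0.58 and 0.44 on the log2 scale.

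None of the 29 citrate cycle genes tested (citrate synthase, aconitase and the dehydrogenases that follow) was called with limma, edgeR or DESeq2, and their differences lay between −0.68 and 0.33. At an unadjusted p under 0.05 alone, 2 were higher and 9 lower. In contrast, 6 of 17 genes that make or use phosphoenolpyruvate, malate or cytosolic citrate were higher in TBO and none was lower. Among them were both genes that the table describes as phosphoenolpyruvate carboxykinase, an enzyme that takes oxaloacetate towards sugar formation. The study names the same genes as phosphoenolpyruvate carboxylase kinase, an enzyme with another role that acts on phosphoenolpyruvate carboxylase, and which name is right was not tested. Cs3g16700 had 880, 810 and 849 FPKM in TBO, against 325, 391 and 325 FPKM in BTSO (1.29 ± 0.13). Cs1g20920 had 92.0, 120 and 175 FPKM in TBO, against 15.9, 12.6 and 26.0 FPKM in BTSO (2.77 ± 0.26). The first was the more abundant and the second differed more. ATP-citrate lyase, which splits citrate in the cytosol, had 3 genes tested, of which 1 was called, with a median of 0.10. The called gene was the beta chain gene Cs9g02230, at 124, 94.0 and 111 FPKM in TBO, against 18.4, 25.2 and 21.8 FPKM in BTSO (2.28 ± 0.18). Of 6 malic enzyme genes tested, 2 were higher. The more abundant of these, Cs1g15720 (named by its orthology entry), had 195 ± 17.4 FPKM in TBO and 62.0 ± 14.2 FPKM in BTSO (SD).

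Glutamate decarboxylase opens the GABA shunt, a route by which citrate carbon is used up in citrus fruit. Of 2 genes tested for it, orange1.1t01622 had 197, 129 and 166 FPKM in TBO, against 36.1, 36.3 and 34.5 FPKM in BTSO (2.15 ± 0.14, adjusted p = 1.36e-11). The other, Cs5g16440 (named by its orthology entry), ran the other way and was not called. Its means were 116 FPKM in TBO and 195 FPKM in BTSO (−0.73). Among 9 genes of the shunt, orange1.1t01622 was the only call (11.1%, against 11.4% of all genes tested), and the median was −0.38. The PH8 and Cs1g20920 primers of the study are given because they identify the citrate genes with the largest differences.
PH8 Cs1g16150, first primer: ccgtgaaggaaggaatgatttgg
PH8 Cs1g16150, second primer: ccatgacaatggattccaca
Cs1g20920, first primer: ggctagcgaagattcaaacg
Cs1g20920, second primer: gtccctttaatgggggtgtt

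Sucrose genes were called in both directions. Of 17 sucrose enzyme genes tested, 3 were higher in TBO and 3 were lower. Sucrose-phosphate synthase 4 (Cs5g19060), which makes sucrose, had 19.6, 13.3 and 11.6 FPKM in TBO, against 79.3, 84.0 and 79.3 FPKM in BTSO (−2.40 ± 0.22, adjusted p = 5.92e-09). An acid invertase (Cs5g09220), which splits sucrose, had 32.4, 34.5 and 15.5 FPKM in TBO, against 139, 261 and 123 FPKM in BTSO (−2.62 ± 0.41). Another soluble invertase gene, Cs9g14590, went the other way, with 14.9, 19.6 and 18.4 FPKM in TBO, against 3.69, 3.93 and 7.06 FPKM in BTSO (1.70 ± 0.30). Sucrose synthase (Cs4g06850), which can also split sucrose, had 124, 160 and 183 FPKM in TBO, against 42.2, 53.2 and 53.0 FPKM in BTSO (1.62 ± 0.12). Within invertases and within the list as a whole, then, single genes moved in opposite directions.

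Sugar transporters and trehalose enzymes were called on 1 side only. Of 12 sugar transporter genes, 4 were higher in TBO and none was lower. SWEET4 (Cs2g28300), a pore for sugars, had 9.47, 18.1 and 12.5 FPKM in TBO, against 1.94, 0.946 and 2.82 FPKM in BTSO (2.31 ± 0.21). Sugar carrier C (Cs2g06900) varied more, with 5.19, 13.8 and 22.5 FPKM in TBO, against 1.77, 1.40 and 2.34 FPKM in BTSO (2.20 ± 0.50). Trehalose enzymes, which make the signal sugar trehalose 6-phosphate and remove its phosphate, had 4 of 12 genes higher and none lower, with a median of 0.82. Both trehalose-phosphate phosphatase genes among them were weak: Cs5g09200 had 7.72 ± 0.685 FPKM in TBO and 0.971 ± 0.350 FPKM in BTSO, and Cs1g01330 had 5.53 ± 1.08 FPKM in TBO and 1.15 ± 0.465 FPKM in BTSO (SD, n = 3 each). Of 18 starch enzyme genes, 1 was higher and 1 was lower (11.1%, against 11.4% of all genes tested). The lower one, a starch synthase (orange1.1t00566, named by its orthology entry), had 48.1 ± 8.11 FPKM in TBO and 131 ± 36.8 FPKM in BTSO.

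**Figure D3:**
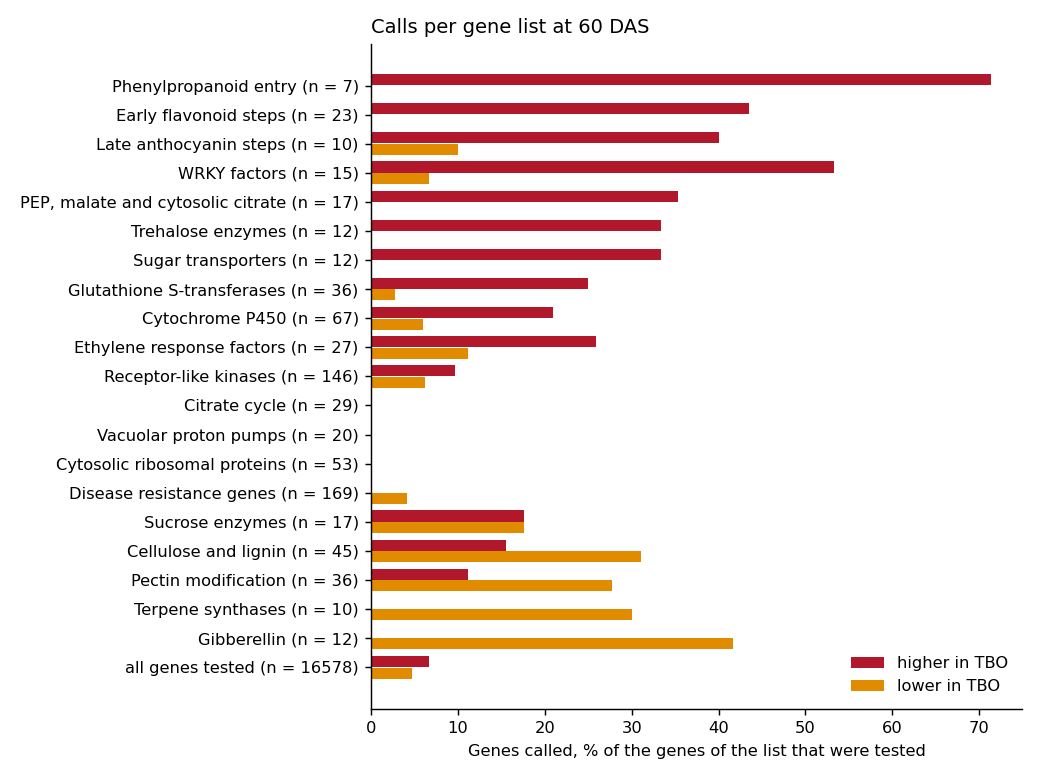
Share of the tested genes of 20 selected lists that were called at 60 DAS (x axis, %), with red bars for genes higher in TBO above orange bars for genes lower in TBO; n is the number of genes tested and the last row is all 16578 genes. Among the lists shown, the phenylpropanoid entry has the longest red bar (5 of 7 genes), the gibberellin list the longest orange bar (5 of 12), and the citrate cycle, vacuolar pumps and ribosomal proteins have no bar.

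Cell wall genes were called lower in TBO more often than higher. Of 36 pectin genes tested, 4 were higher in TBO and 10 were lower, with a median of −0.33. All 3 pectate lyase calls, of 7 genes tested, were lower in TBO; these enzymes cut pectin and are known for their part in fruit softening. Pectate lyase 5 (Cs7g09860) had 12.7, 13.1 and 5.51 FPKM in TBO, against 136, 178 and 85.4 FPKM in BTSO (−3.57 ± 0.32, adjusted p = 3.07e-09). The most abundant of them, Cs5g06600, had 302, 304 and 186 FPKM in TBO, against 1066, 1362 and 676 FPKM in BTSO (−1.94 ± 0.27). Cs8g11330 had 121 ± 31.0 FPKM in TBO and 481 ± 54.9 FPKM in BTSO (SD). Pectin methylesterases, which remove methyl groups from pectin, had 3 of 17 genes higher and 6 lower. Outside that count, orange1.1t00214, which has a pectinesterase orthology entry, was far higher in TBO, as given below. Pectinesterase 63 (Cs4g06890) had 2.92, 0.818 and 1.51 FPKM in TBO, against 17.6, 12.9 and 11.7 FPKM in BTSO (−2.50 ± 0.28), and pectinesterase/inhibitor 21 (Cs3g14610) had 28.9 ± 3.16 FPKM in TBO and 101 ± 29.9 FPKM in BTSO. The non-catalytic polygalacturonase subunit gene Cs7g08620 was lower in TBO as well (−3.16 ± 0.40).

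Expansins loosen walls without cutting them. Expansin-A4 (Cs6g06530) had 4.67, 4.34 and 3.86 FPKM in TBO, against 42.0, 76.4 and 25.3 FPKM in BTSO (−3.07 ± 0.38, adjusted p = 5.00e-07), and 3 of 6 expansin genes tested were lower in TBO with 1 higher. A xyloglucan endotransglucosylase/hydrolase (Cs8g03550), which cuts and rejoins xyloglucan, was higher instead, at 78.9, 94.7 and 82.4 FPKM in TBO, against 23.1, 12.6 and 34.0 FPKM in BTSO (1.93 ± 0.23). Of 45 cellulose and lignin genes, 7 were higher in TBO and 14 were lower, with a median of −0.36. The cellulose synthase-like gene Cs5g01970 led the lower ones in level, at 63.1, 54.1 and 47.1 FPKM in TBO, against 135, 181 and 123 FPKM in BTSO (−1.39 ± 0.21). With the vascular sums also lower in TBO, the part of vascular tissue in this list was not tested.

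Several genes far below BTSO lay outside the wall and sugar lists. Among them were 3 genes described as salicylic acid-binding protein 2, an esterase that frees salicylic acid from its methyl ester in tobacco. Cs1g23200 had 2.43, 2.52 and 3.36 FPKM in TBO, against 66.8, 41.6 and 89.3 FPKM in BTSO (−4.09 ± 0.34, adjusted p = 9.20e-10). Cs1g23170 followed at −3.77 ± 0.35 and Cs1g23160 at −3.10 ± 0.36. Since the 3 genes are alike in name and near each other in number, reads may be shared among them. Enolase-phosphatase E1 (Cs5g16220), an enzyme of methionine salvage, had 1.80, 2.38 and 1.75 FPKM in TBO, against 30.4, 18.4 and 30.7 FPKM in BTSO (−3.18 ± 0.32). Secoisolariciresinol dehydrogenase-like Cs6g14030, of lignan formation, had 11.9 ± 0.883 FPKM in TBO and 115 ± 29.0 FPKM in BTSO (SD). A merged vinorine synthase-like locus (Cs6g12870;Cs6g12880), an acyltransferase family, had 49.7 ± 14.4 FPKM in TBO and 440 ± 171 FPKM in BTSO. Mitoferrin-like Cs6g09160, named for a carrier of iron into mitochondria, differed by −2.90 ± 0.21, and the blue copper protein Cs3g17810 by −2.79 ± 0.45. The merged sugar phosphate translocator locus (Cs7g05190;Cs7g05220) was uneven in TBO, with 7.34, 1.69 and 70.8 FPKM, against 77.4, 119 and 74.9 FPKM in BTSO. Its call (−2.93 ± 1.07) was lost without TBO replicate 2 (−1.87), with edgeR (−1.80) and with DESeq2 (−1.79).

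**Figure D4:**
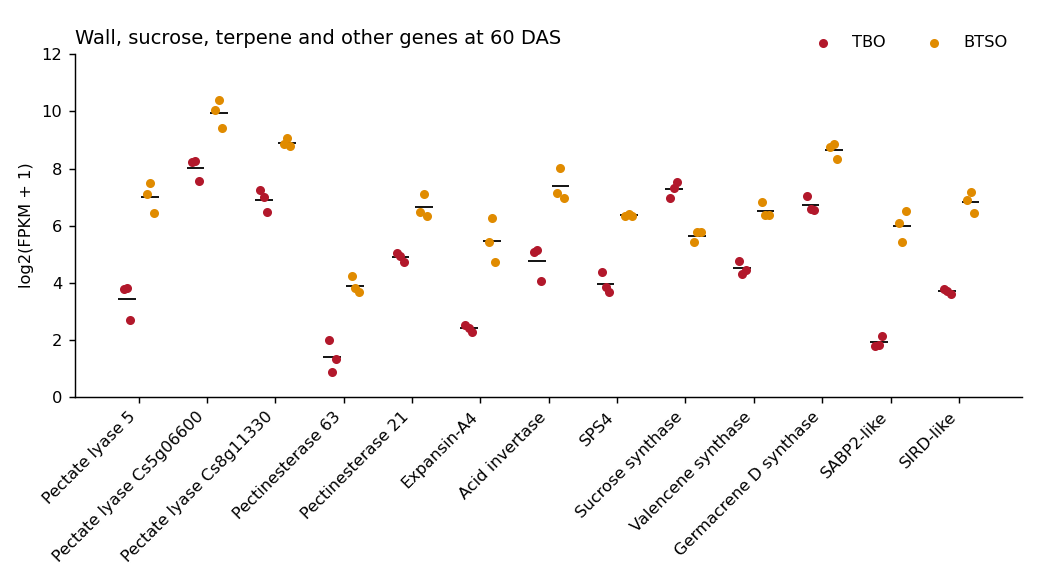
Levels of 13 genes at 60 DAS (y axis, log2(FPKM + 1)), 12 of them called lower in TBO and sucrose synthase called higher; the 3 TBO libraries are red and stand left of the 3 BTSO libraries in orange, with a black line at each mean of the plotted values. SPS4 is sucrose-phosphate synthase 4 and SIRD-like is secoisolariciresinol dehydrogenase-like, SABP2-like is Cs1g23200; pectate lyase 5 lies at 5.51 to 13.1 FPKM in TBO and at 85.4 to 178 FPKM in BTSO.

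Terpene synthases, which make aroma compounds, were called only as lower in TBO (3 of 10 genes, median −0.86). Valencene synthase (orange1.1t05635), which makes a sesquiterpene typical of orange, had 25.9, 18.9 and 20.6 FPKM in TBO, against 114, 81.1 and 80.8 FPKM in BTSO (−2.02 ± 0.19, adjusted p = 7.44e-09). A merged germacrene D synthase locus (Cs5g12880;Cs5g12900;Cs5g12890) had 130, 94.7 and 92.9 FPKM in TBO, against 431, 464 and 320 FPKM in BTSO (−1.93 ± 0.20). A limonene synthase-like gene, Cs3g04360, was at 7.01 ± 1.51 FPKM in TBO and 17.2 ± 4.46 FPKM in BTSO. In the carotenoid list, 2 of 17 genes were higher in TBO and 3 were lower. Phytoene synthase (Cs6g15910), the first enzyme of carotenoid formation, had 32.5 ± 3.56 FPKM in TBO and 67.4 ± 5.13 FPKM in BTSO (−1.03 ± 0.15), and zeaxanthin epoxidase (Cs1g22620) had 24.2 ± 1.86 FPKM in TBO and 50.4 ± 3.04 FPKM in BTSO (−1.03 ± 0.14). Both were at the limit: leaving out TBO replicate 3 ended both calls (−0.97 for each), leaving out BTSO replicate 2 ended that of phytoene synthase (−0.97), and leaving out BTSO replicate 1 that of zeaxanthin epoxidase (−0.98).

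Among hormone genes, calls in the gibberellin list were all lower in TBO, in 5 of 12 genes tested (median −0.88). Gibberellin 20-oxidase is an enzyme of gibberellin formation, and its gene Cs3g20430 had 0.908, 1.36 and 0.398 FPKM in TBO, against 9.47, 8.62 and 4.05 FPKM in BTSO (−2.11 ± 0.23). Cs1g09890 and orange1.1t05342 of the same family lay at −1.28 ± 0.23 and −1.21 ± 0.20. A gibberellin 2-oxidase (Cs9g01770), which inactivates the hormone, was lower too (−1.04 ± 0.16, and −0.98 and no longer called without BTSO replicate 1), so enzymes with opposing roles shared the direction. Gibberellin-regulated protein 4 (Cs6g21260) had 13.4 ± 4.40 FPKM in TBO and 59.6 ± 23.1 FPKM in BTSO. Of 11 abscisic acid genes 1 was called (9.09%, against 11.4% of all genes tested), abscisic acid 8'-hydroxylase (Cs3g23530), which breaks the hormone down. It had 5.57, 9.30 and 14.2 FPKM in TBO, against 1.71, 0.639 and 0.998 FPKM in BTSO (2.29 ± 0.29). Of 11 jasmonate genes 3 were higher, led by the TIFY repressor gene Cs1g17210 at 49.2 ± 12.9 FPKM in TBO and 11.8 ± 6.98 FPKM in BTSO. Of 32 auxin genes 1 was called (3.12%). No gene of ethylene synthesis or signalling (6 tested, none a receptor) was called with limma, edgeR or DESeq2. At an unadjusted p under 0.05, 2 of them were higher.

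Among transcription factor families, WRKY genes, many of which act in defence, had the highest share of calls: 8 of 15 were higher in TBO and 1 was lower, with a median of 1.04. WRKY31 (Cs2g02790) had 55.6, 50.1 and 58.3 FPKM in TBO, against 13.2, 9.07 and 9.62 FPKM in BTSO (2.27 ± 0.19, adjusted p = 1.78e-09). WRKY4 (Cs7g03300) had 50.4 ± 4.31 FPKM in TBO and 20.1 ± 5.52 FPKM in BTSO, and WRKY23 (orange1.1t01713) had 30.3 ± 4.59 FPKM in TBO and 9.68 ± 2.17 FPKM in BTSO. The exception was WRKY47 (orange1.1t01779), at 11.2 ± 1.92 FPKM in TBO and 41.0 ± 14.7 FPKM in BTSO (−1.75 ± 0.25). NAC factors had 5 of 28 genes higher and none lower (17.9%, against 11.4% of all genes tested). Among them was NAC100 (Cs5g10870) at 32.3 ± 4.69 FPKM in TBO and 7.92 ± 2.45 FPKM in BTSO. Ethylene response factors went both ways, 7 of 27 higher and 3 lower. ERF073-like Cs5g33540 had 389 ± 99.2 FPKM in TBO and 151 ± 50.8 FPKM in BTSO, and ERF104-like Cs9g13620 had 39.4 ± 10.4 FPKM in TBO and 128 ± 49.2 FPKM in BTSO. In bHLH factors, 3 of 20 were higher and 1 was lower (20.0%, against 11.4% of all genes tested).

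Genes of intracellular disease resistance receptors were seldom called (4.14%), with none of 169 higher in TBO and 7 lower; edgeR called 7 higher and 15 lower, and DESeq2 the same numbers. Receptor-like kinases had 14 of 146 genes higher and 9 lower (15.8%, against 11.4% of all genes tested). Of 36 glutathione S-transferase genes, 9 were higher and 1 was lower. All those higher but Cs7g04600 had identifiers from orange1.1t03452 to orange1.1t03632, so reads may be shared among them. GST U17 (Cs7g04600) was abundant in both varieties, at 553 ± 61.9 FPKM in TBO and 242 ± 11.5 FPKM in BTSO (1.18 ± 0.13). A partial Cu/Zn superoxide dismutase gene (orange1.1t05755), an enzyme that removes superoxide, had 18.9, 8.06 and 19.6 FPKM in TBO, against 0.131, 0 and 0.272 FPKM in BTSO (3.78 ± 0.40). Cytochrome P450 genes had 14 of 67 higher and 4 lower, with Cs7g13930 (86B1, of a family that makes suberin monomers) at 76.5 ± 1.27 FPKM in TBO and 29.6 ± 10.7 FPKM in BTSO. ABC transporter genes had 4 of 36 higher and 2 lower (16.7%, against 11.4% of all genes tested). Cs6g15280 (G family member 34) was at 26.8 ± 7.08 FPKM in TBO and 90.5 ± 16.6 FPKM in BTSO. Heat shock proteins and chaperones had 1 of 47 genes higher and 2 lower (6.38%, against 11.4% of all genes tested). Of 53 cytosolic ribosomal protein genes none was called with limma, edgeR or DESeq2; at an unadjusted p under 0.05 alone, 2 were higher and 26 lower, with a median of −0.28. Of the seed list, 2 of 8 genes tested were higher in TBO and 1 was lower. The desiccation protein gene D-29 (Cs9g01250) was at 130 ± 31.4 FPKM in TBO and 24.2 ± 8.76 FPKM in BTSO, while the sums of the whole list overlapped, as given above. Of the photosystem list, 2 of 13 genes tested were higher and none was lower (15.4%, against 11.4% of all genes tested). Photosystem I subunit V (Cs4g07650) was at 54.2 ± 8.20 FPKM in TBO and 13.9 ± 4.41 FPKM in BTSO.

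Some genes were listed at 0 in all libraries of 1 variety. Of the 24179 genes in the table, 339 were above 0 in every TBO library and listed at 0 in every BTSO library. Of these, 52 had a TBO mean of at least 1 FPKM. A further 105 genes were of the opposite kind, 13 of them with a BTSO mean of at least 1 FPKM. Summed estimated counts were larger in TBO, as given above, and their part in these numbers was not tested. Anthocyanidin reductase (Cs2g07290, chromosome 2, 4345588 to 4349351 in the coordinates of the deposited table), which leads from anthocyanidins to proanthocyanidins, had 8.25, 2.88 and 6.49 FPKM in TBO and was listed at 0 in BTSO. A flavonoid 3',5'-hydroxylase-like gene (Cs2g29510) had 5.79, 3.26 and 6.98 FPKM in TBO and was also listed at 0 in BTSO. Genes described as phenylalanine N-monooxygenase, an enzyme that starts the formation of nitrogen-bearing defence compounds, behaved likewise. Cs7g29740 had 8.45, 4.21 and 9.27 FPKM in TBO, and orange1.1t01456 had 2.75, 4.91 and 8.21 FPKM. Patatin-like protein 2 (Cs8g17090), a lipid hydrolase, had 14.7, 1.07 and 6.82 FPKM in TBO. In the other direction, the highest gene with a named function was a RICESLEEPER-like zinc finger gene (Cs1g02260, chromosome 1, 1584270 to 1585708), of a type derived from transposons, with 3.83, 2.80 and 3.89 FPKM in BTSO and listed at 0 in TBO. Expansin-B15 (Cs9g15150, chromosome 9, 14594294 to 14596444) had 2.09, 1.92 and 1.41 FPKM in BTSO, the release factor gene orange1.1t04300 had 1.11, 1.54 and 1.78 FPKM, and the flavonol synthase-like gene Cs5g28730 (chromosome 5, 30968335 to 30970440) had 0.834, 0.728 and 1.43 FPKM, all listed at 0 in TBO. The sources used here do not give the genome build of these coordinates.

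To see where 60 DAS departs from the rest of storage, the difference at 60 DAS was set against the mean of the same difference at 0, 15, 30 and 90 DAS in the same fit. It passed a Benjamini-Hochberg adjusted p of 0.05 in 1003 genes (6.05%), 540 of them positive (3.26%) and 463 negative (2.79%). With upper-quartile scaling the split was 686 positive and 364 negative. Without TBO replicate 3 the total was 490 (295 positive and 195 negative) and without BTSO replicate 1 it was 534 (341 positive and 193 negative), and the negative count was also 301 without TBO replicate 1 and 240 without TBO replicate 2. When the departure also had to exceed 1 on the log2 scale, 244 positive and 30 negative genes were left. For the 244 positive genes, the median of the mean FPKM in TBO was 0.40 at 0 DAS, 0.81 at 15, 1.43 at 30, 7.34 at 60 and 5.34 at 90 DAS. In BTSO it was 0.83, 0.33, 0.91, 0.38 and 0.65 FPKM at the same days. At 0 and 30 DAS BTSO replicate 2 carried this value: the median over the same genes was 0.25, 1.52 and 0.24 FPKM in the BTSO libraries of 0 DAS and 0.59, 1.55 and 0.44 FPKM in those of 30 DAS. These values describe genes chosen by the contrast. Of the 244 genes, 62 were called higher in TBO at 30 DAS (5.56% of all genes were), 231 at 60 DAS and 174 at 90 DAS (5.95% of all genes), so most of them still differed at the last day.

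The largest departures lay outside the anthocyanin pathway. A gene with a pectinesterase orthology entry, orange1.1t00214, was singled out after its values were seen, because its departure was the largest of all genes tested. It had 71.7, 97.9 and 221 FPKM in TBO, against 0.186, 0.608 and 0.343 FPKM in BTSO at 60 DAS, while at 0, 15 and 30 DAS no TBO library was above 0.383 FPKM. Its departure was 5.33 ± 0.63 (adjusted p = 1.42e-05), and at 90 DAS TBO still had 126, 55.3 and 188 FPKM, against 0.965, 0.486 and 3.00 FPKM in BTSO. A hevein-like gene (Cs8g13710), named for a chitin-binding defence protein, had 21.2, 27.6 and 56.2 FPKM in TBO, against 0.143, 0.238 and 0.373 FPKM in BTSO, and departed by 4.26 ± 0.53 (adjusted p = 2.62e-05). The 7S globulin-like gene Cs9g06160 had 38.0, 61.8 and 108 FPKM in TBO, against 1.17, 1.40 and 0.276 FPKM in BTSO (departure 3.87 ± 0.46), and its neighbours by name, Cs9g06060 and Cs9g06230, departed by 4.28 ± 0.58 and 4.03 ± 0.44. In these genes TBO replicate 3 was the highest of the 3 libraries and replicate 1 the lowest.

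A second glutathione S-transferase gene, orange1.1t03455, had 13.9, 16.2 and 19.4 FPKM in TBO, against 0.101, 0 and 0 FPKM in BTSO, and was listed at 0 in every TBO library of 0, 15 and 30 DAS. It departed by 4.04 ± 0.52, and 7 of the 36 GST genes tested were positive in this contrast with none negative. Over all genes tested, 3.26% were positive and 2.79% negative. All 7 had identifiers from orange1.1t03452 to orange1.1t03632 and BTSO means of at most 0.249 FPKM. Reads may be shared among them, so they need not stand for the GST family. The pair Cs2g10160 and orange1.1t05417, both described as inactive tetrahydrocannabinolic acid synthase, had near-identical values in the 60 DAS libraries, and reads may be shared between them. Cs2g10160 had 47.8, 13.5 and 37.5 FPKM in TBO, against 0.331, 0.862 and 0.207 FPKM in BTSO (departure 4.35 ± 0.78). A caffeoyl-CoA O-methyltransferase gene (Cs1g22450), of lignin formation, had 16.2, 12.5 and 25.6 FPKM in TBO, against 1.26, 1.40 and 2.06 FPKM in BTSO (departure 3.69 ± 0.64). At earlier days 1 BTSO library carried more of these transcripts than the rest of its group: at 0 DAS Cs2g10160 had 11.2 FPKM in BTSO replicate 2, against 0.308 and 0.112 FPKM in the other BTSO libraries, and at 30 DAS 10.4 FPKM in replicate 2. With those libraries and BTSO replicate 3 of 15 DAS left out, a choice made after the values were seen, the count of departures was 976 (505 positive and 471 negative).

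**Figure D5:**
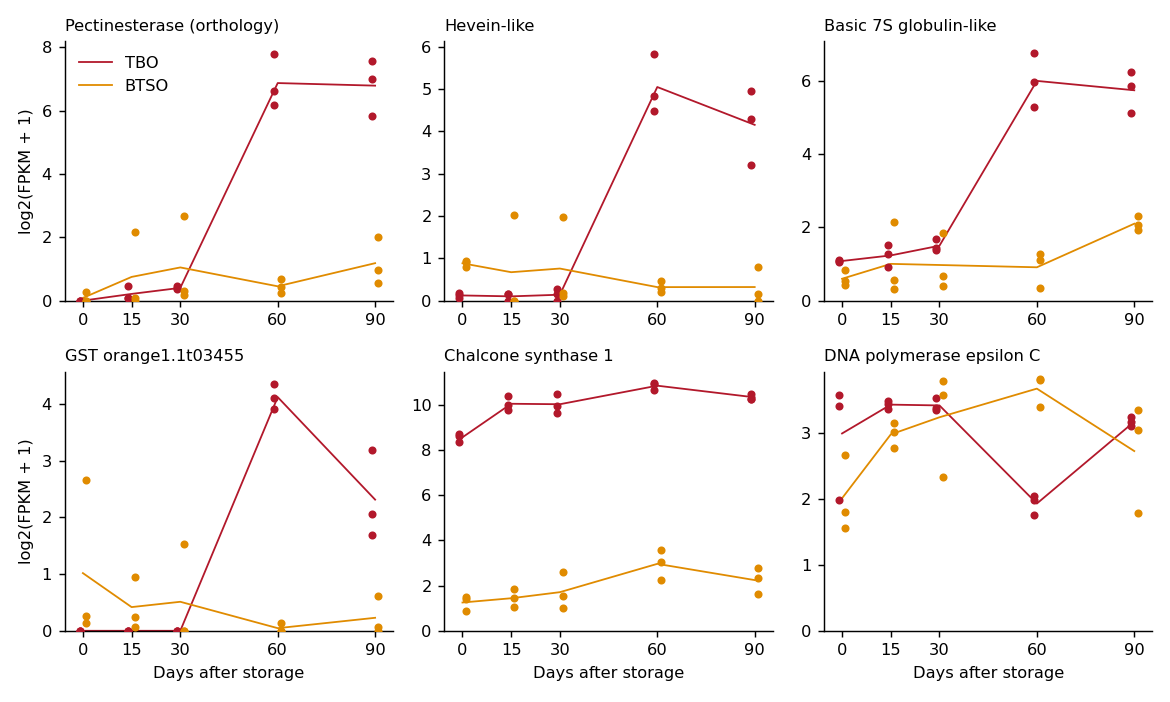
Levels of 6 genes over storage (x axis, days after storage; y axis, log2(FPKM + 1)), with 1 point per library, TBO in red and shifted left of BTSO in orange, and lines through the means of the plotted values. The first 4 genes (orange1.1t00214, Cs8g13710, Cs9g06160 and orange1.1t03455) are higher in TBO at 60 and 90 DAS than at the earlier days; chalcone synthase 1 is high in TBO at each day, and DNA polymerase epsilon C is low in TBO at 60 DAS (2.38 to 3.12 FPKM).

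For some anthocyanin genes the distance from BTSO at 60 DAS exceeded the mean of the other days. The distance at 60 DAS was not always the largest of all days. F3H (Cs1g25280) differed by 2.78 at 0 DAS, 4.58 at 15, 5.75 at 30, 6.54 at 60 and 6.83 at 90 DAS, a departure of 1.55 ± 0.23 (adjusted p = 0.000136). F3'H (Cs5g11730) departed by 1.21 ± 0.22, PAL Cs8g16290 by 1.55 ± 0.37 and the DAHP synthase gene by 1.30 ± 0.28. The PAL value was 1.53 with a pseudocount of 0.1 and 1.64 with edgeR, neither past the limit. Chalcone synthase 1 and the GST gene Cs6g15900 did not pass this test. DFR (Cs3g25090) departed by 1.07 ± 0.29, but the value was −0.18 with edgeR and −0.21 with DESeq2, neither past the limit. Glutamate decarboxylase (orange1.1t01622) differed more at 60 DAS than on the days to either side: its difference was 0.88 at 0 DAS, 0.95 at 15, 1.24 at 30, 2.15 at 60 and 0.97 at 90 DAS, a departure of 1.14 ± 0.15 (adjusted p = 6.31e-05). Against 30 DAS alone the departure was 0.91 (adjusted p = 0.00998) and against 90 DAS alone it was 1.18 (adjusted p = 0.00251). PH8 and both carboxykinase genes did not pass the test.

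On the negative side the departures were smaller. DNA polymerase epsilon subunit C (Cs8g16810), named for a subunit of a replication enzyme, had 2.38, 2.94 and 3.12 FPKM in TBO, against 12.9, 9.49 and 13.0 FPKM in BTSO at 60 DAS, whereas at 90 DAS TBO had 7.57, 7.95 and 8.40 FPKM, against 9.14, 7.23 and 2.43 FPKM in BTSO. Its departure was −2.25 ± 0.43. The wax ester synthase-like gene Cs2g14990 departed by −1.30 ± 0.21 and the gibberellin 20-oxidase genes Cs1g09890 and orange1.1t05342 by −1.17 ± 0.25 and −1.11 ± 0.22. The departure of orange1.1t05342 was not past the limit with edgeR (adjusted p = 0.234) or with DESeq2 (adjusted p = 0.195). Pectinesterase 63 (Cs4g06890) departed by −1.36 ± 0.31, a call lost without TBO replicate 2 (−1.10) or BTSO replicate 1 (−1.20). DNA ligase 1 (Cs5g26850) was a departure with no difference at 60 DAS itself: it lay between 213 and 284 FPKM in TBO and between 163 and 257 FPKM in BTSO, while at 0 DAS it had 325, 453 and 293 FPKM in TBO, against 102, 83.0 and 84.7 FPKM in BTSO.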

How the data were processed

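Libraries of juice sac mRNA were grouped by variety and storage day from their labels. The authors cleaned the reads, built transcripts per library with StringTie and, from one merged set of transcripts, calculated the FPKM values deposited for each gene; no replicates were pooled. A deposited estimated count, given without decimals, stands beside each FPKM. The submitters' processing notes name HISAT2 2.0, StringTie 1.3.0, Bowtie 0.12.2 and the mouse build mm8; the sweet orange build is not given in the sources used here. The study and the labels name different sequencers. Columns with the authors' own comparisons (fold changes and p-values) were not used.

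The filter kept genes that reached 1 FPKM in 3 or more libraries. They were fitted in limma 3.58.1 (R 4.3.3) as log2(FPKM + 1), a pseudocount of 1, with a mean for each of the 10 groups over all 30 libraries, a variance trend and no covariate. Adjusted p-values are Benjamini-Hochberg over all genes tested. Alternatives were a pseudocount of 0.1, other filters, the 6 libraries alone, upper-quartile and quantile scaling, edgeR 4.0.16 and DESeq2 1.42.0 on the estimated counts, a replicate block and each library left out. The scripts were tested on simulated data.

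Gene lists were matched on description, orthology entry or identifier. Orthology entries and exclusions were added once the annotation, but no value, had been read, and the lists and the comparison were chosen with earlier results of these data known. Named genes were drawn from the 12 largest differences per direction with a function in the description, up to 4 called members per list by level (all in short lists), the 8 largest departures per direction, genes the study identifies, and the 5 highest listed at 0 in the other variety; other choices are said so in the text. Depth is given as summed estimated counts, which are not numbers of reads, so no counting interval was computed.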

Additional observations from a re-analysis of the deposited data

Results flagged for a closer look

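Results are given here where the difference between TBO and BTSO at 60 DAS departed from the mean of the other days. The value is the 60 DAS difference minus the mean difference at 0, 15, 30 and 90 DAS, in log2(FPKM + 1). The limit was a Benjamini-Hochberg adjusted p under 0.05 (limma, all 30 libraries). A gene can pass this limit and still differ at 90 DAS: of the 244 genes with a positive value over 1, 174 were called higher in TBO at 90 DAS. Of the genes named in the text, 42 passed the limit. In 28 of them the call held on leaving out any single library of 60 DAS, and in 14 it did not.

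The largest positive values were 5.33 for orange1.1t00214, 4.37 for orange1.1t05417, 4.35 for Cs2g10160, 4.28 for Cs9g06060, 4.26 for Cs8g13710, 4.04 for orange1.1t03455, 4.03 for Cs9g06230, 3.87 for Cs9g06160 and 3.69 for Cs1g22450. Genes listed at 0 in BTSO at 60 DAS gave 2.70 for Cs8g17090, 2.56 for Cs7g29740, 1.76 for orange1.1t01456, 1.24 for Cs2g29510 and 1.16 for Cs2g07290, values that depend on the pseudocount. The calls of orange1.1t01456, Cs2g29510 and Cs2g07290 were lost with edgeR and with DESeq2, and that of Cs8g17090 with edgeR. Pathway genes gave 1.55 for F3H Cs1g25280, 1.55 for PAL Cs8g16290, 1.30 for the DAHP synthase gene Cs3g18030 and 1.21 for F3'H Cs5g11730. The call of PAL Cs8g16290 was lost with a pseudocount of 0.1 and with edgeR. The ATPase 4 locus Cs6g03430;Cs6g03440;Cs6g03445 gave 1.12, glutamate decarboxylase orange1.1t01622 gave 1.14, the desiccation gene Cs9g01250 gave 1.17 and sucrose synthase Cs4g06850 gave 0.70.

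Negative values that held on leaving out any single library were −2.25 for DNA polymerase epsilon subunit C Cs8g16810, −1.30 for Cs2g14990, −1.29 for DNA ligase 1 Cs5g26850, −1.17 for Cs1g09890, −1.11 for orange1.1t05342 and −0.86 for expansin-B15 Cs9g15150. The calls of orange1.1t05342 and Cs9g15150 were lost with edgeR and with DESeq2.

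The 14 calls that ended without at least 1 library were positive in 5 genes: PAL Cs6g11950 at 1.51, DFR Cs3g25090 at 1.07, SWEET4 Cs2g28300 at 0.93, PAL Cs7g25030 at 0.86 and the CHI-like gene Cs7g20780 at 0.80. They were negative in 9 genes: extensin-3 Cs3g21160 at −1.79, rubisco accumulation factor 1 Cs8g12790 at −1.73, pectinesterase 63 Cs4g06890 at −1.36, pectate lyase 5 Cs7g09860 at −1.29, valencene synthase orange1.1t05635 at −0.83, pectate lyase Cs8g11330 at −0.82, the ABC transporter gene Cs6g15280 at −0.75, phytoene synthase Cs6g15910 at −0.60 and zeaxanthin epoxidase Cs1g22620 at −0.53. TBO replicate 3 ended 12 of the calls when left out, BTSO replicate 1 ended 10, and TBO replicate 2 alone ended that of Cs7g20780. Extensin-3 was not called at 60 DAS itself, with 338, 198 and 295 FPKM in TBO, against 285, 666 and 661 FPKM in BTSO.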

How the results depend on the processing

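The count of calls at 60 DAS was 1892 and moved to 2903 with a pseudocount of 0.1 (1249 lower in TBO), 2994 with edgeR (1435 lower) and 2980 with DESeq2 (1405 lower). It was 1897 with no filter, 1824 with the filter on the 60 DAS libraries, 1888 from the 6 libraries alone, 1885 with upper-quartile and 1928 with quantile scaling. Leaving out 1 library gave 1736 to 2204 calls, 995 to 1258 higher and 720 to 946 lower. Departures from the other days (1003) were 274 with a log2 limit of 1 (244 positive and 30 negative), 1624 against 0, 15 and 30 DAS (833 negative), and edgeR gave 298 negative. Without 1 library they were 490 to 1042, with 295 to 556 positive and 193 to 486 negative. The difference in genes detected was 592 to 708.83 without 1 library and 305.33 for genes of at least 1 FPKM. The cause of these shifts was not tested.

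Departures reversed for DFR Cs3g25090 (−0.18 with edgeR, −0.21 with DESeq2) and for the CHI-like gene Cs7g20780 (−1.43 with edgeR, −1.24 with DESeq2). At 60 DAS, DNA ligase 1 Cs5g26850, not called, was −0.062 without BTSO replicate 2, −0.0033 without TBO replicate 3 and at most 0.27 on leaving out 1 library, and Cs6g11490, not called, was 0.057 without BTSO replicate 2 and −0.35 without BTSO replicate 3. Of the named departures, 15 of 42 were lost with edgeR and 10 with DESeq2. List counts moved by over 1.5 times with edgeR for, among others, trehalose enzymes (7 higher), NAC factors (8 higher and 1 lower), MYB factors (7 higher), starch enzymes (4 higher), auxin genes (5 higher and 1 lower), heat shock genes (5 higher), abscisic acid genes (3 higher and 1 lower), terpene synthases (5 lower), pectin genes (16 lower), cytochrome P450 genes (23 higher) and receptor-like kinases (27 higher and 21 lower), and edgeR called 2 early flavonoid genes lower. The median of the disease resistance genes was 0.07, and −0.01 with quantile scaling. For genes with FPKM below about 1 the difference depends on the pseudocount.

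The replicate numbers gave no pairing: same-numbered libraries correlated at −0.03, −0.07 and 0.17 at 60 DAS in their deviations from the group means. With a replicate block there were 1893 calls (1108 higher and 785 lower), 1890 of them shared, and 1053 departures (545 positive and 508 negative); 1 of 3 TBO libraries correlated best with its own number. The paired fit ended 2 of the 42 named departures.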
